A study of Mus musculus with 8 samples.

Results

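The genes described are those of anti-Müllerian hormone (AMH), inhibin, activin and follistatin, chosen by symbol: Amh and its receptor gene Amhr2, the inhibin and activin subunit genes Inha, Inhba and Inhbb, the activin receptor genes Acvr2a, Acvr2b and Acvr1b, and the genes of the activin-binding proteins, Fst and Fstl3. All 10 were found among the 26586 gene symbols counted, and 8 of them passed the expression filter with 13873 genes in all. RNA-Seq had been performed on primordial follicles, the resting follicles in which a small oocyte is enclosed by flat pregranulosa cells, picked with fine tips after Liberase digestion of ovary pieces from postnatal day 3 mice on a C57Bl/6 x CBA background. The question was whether follicles of mito-supplemented descendants differ from those of controls. The 4 mito-supplemented samples came from the third generation after founders whose oocytes had received, with the spermatozoon at intracytoplasmic sperm injection, mitochondria isolated from egg precursor cells of the same strain. The 4 control samples came from control mice for which no sperm injection is described, so that injection of the founders and the added mitochondria cannot be told apart. Libraries were made with a Trio RNA-Seq kit, which amplifies the cDNA. The label codes carry 2 prefixes in controls and 2 others in mito-supplemented samples. What the prefixes stand for is not given in the sources used here, and as each occurs in 1 group only, prefix and group cannot be told apart.

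AMH is made by granulosa cells of growing follicles and restrains both the recruitment of primordial follicles and the response of growing follicles to follicle-stimulating hormone. It binds a type II receptor of its own, AMHR2, which then acts through type I receptors and SMAD proteins shared with bone morphogenetic proteins. Activins are dimers of inhibin beta subunits and signal through ACVR2A or ACVR2B with ACVR1B, whereas inhibins pair a beta subunit with the alpha subunit encoded by Inha and oppose activin, and follistatin and FSTL3 bind activin and keep it from its receptors. In the newborn ovary, activin and follistatin are known for their part in the breakdown of germ cell nests and the formation of the follicle pool.

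The libraries held 17658559, 13917412, 18219362 and 10370045 counts in controls 1 to 4 and 19760763, 13370911, 16116434 and 13276462 in mito-supplemented samples 1 to 4. Genes of ribosomal RNA took 75.3% of the counts of control 4 and between 20.15% and 45.6% in the other 7 libraries, which left 2559876 counts for all other genes in control 4 and at least 7280214 elsewhere. The presence of germ cells and pregranulosa cells, though not the stage of the follicles, was checked with marker genes. Ddx4, a germ cell gene, was counted in all 8 libraries, at 7.86 to 71.3 CPM (counts scaled to library size with edgeR's TMM factors), as was Foxl2, a transcription factor gene of pregranulosa cells, at 7.62 to 61.4 CPM. Other oocyte genes were scarcer in some libraries. In mito-supplemented 4, Sohlh1, Sohlh2 and Lhx8 had 1, 5 and 8 counts, beside 113 of Ddx4. Genes of other cells were also counted. Slc4a1, the anion exchanger gene of red cells, stood at 2504, 1704 and 2999 CPM in control 2, control 3 and mito-supplemented 1 and at 4.06 to 47.6 CPM in the other 5 libraries, and Nlrp5, an oocyte gene, stood at 1392 CPM in control 1 and at 18.4 to 245 CPM elsewhere. The libraries thus differed in content within each group, and in such bulk samples fewer cells of a type and less RNA per cell cannot be told apart.

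Amhr2 had the largest difference of the 8 genes tested in edgeR's quasi-likelihood test and was higher in mito-supplemented samples. In limma-voom with sample quality weights Fst had the largest, with a log2 fold change of 3.12 against 1.90 for Amhr2. Fstl3 was barely counted in controls and more often counted in mito-supplemented samples, and Amh itself was close to the detection limit in most libraries. With the quasi-likelihood test of edgeR, 0 of the 8 genes tested had an adjusted p under 0.05, where 0.0% of all 13873 genes had one and the lowest adjusted p of any gene was 0.418. At an unadjusted p under 0.05, 1 of the 8, Amhr2, was higher in mito-supplemented samples, beside 5.31% of all genes, and 0 of the 8 were lower, beside 2.40%. The likelihood ratio test called 0 of the 8 (0.418% of all genes), DESeq2 called Amhr2 alone (1.02% of all genes), and limma-voom with sample quality weights called Amhr2, Fst and Acvr1b (21.0% of all genes). Of the 10 genes, 1 had groups that did not overlap in CPM, Fstl3, higher in mito-supplemented samples, as had 2.32% of the 20837 genes with any count. Among genes tested such a gap was found in 3.0% in this direction and in 2.03% in the other, where it was seen in 0 of the 10. With 1 gene in so short a list, these shares say nothing about the family as a whole.

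**Figure D1:**
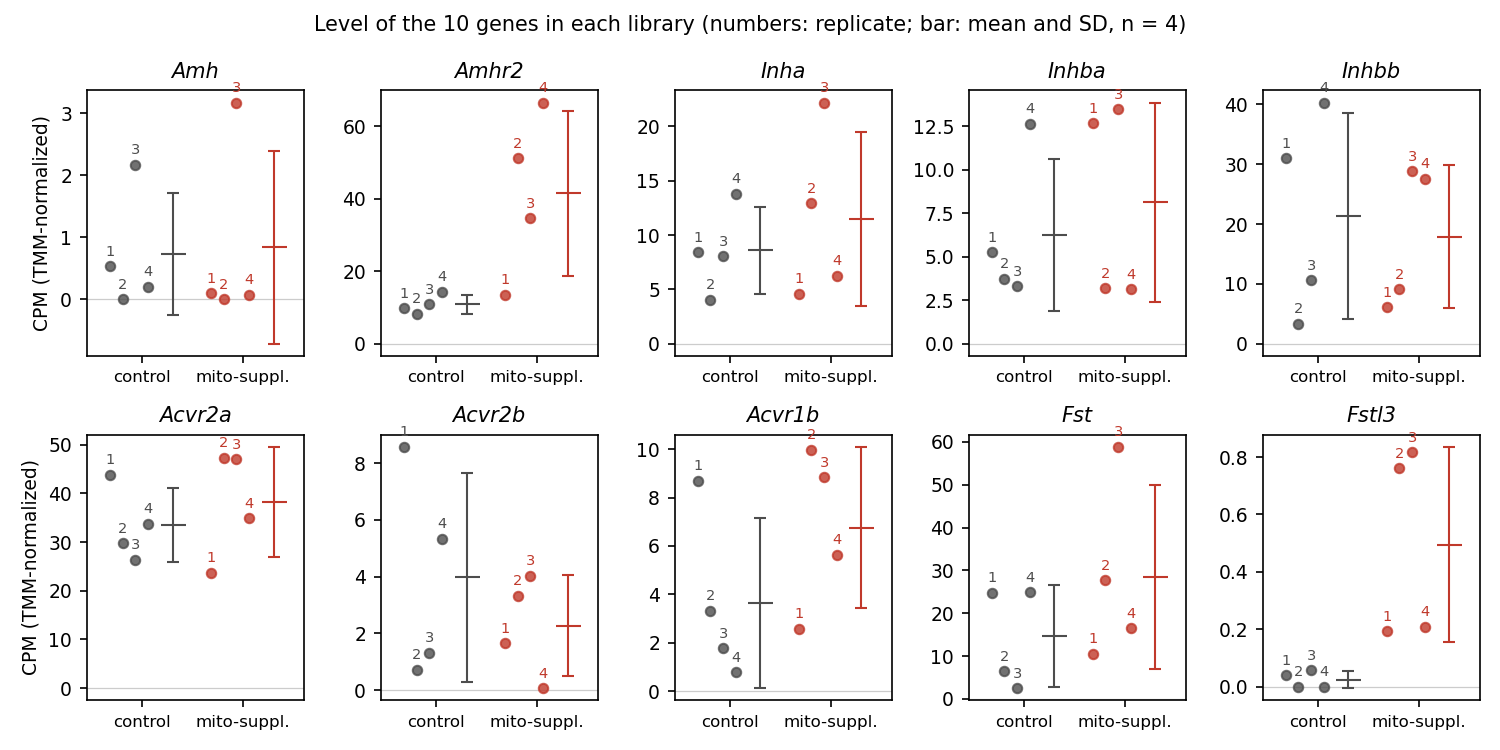
Each panel plots the level of 1 gene in TMM-normalized CPM (vertical axis, a scale for each gene) in the 4 control and the 4 mito-supplemented libraries, with replicate numbers beside the points and the mean and SD of each group (n = 4) to their right. Amhr2 was at or below 14.4 CPM in controls and at or above 34.7 CPM in 3 of the 4 mito-supplemented libraries, with mito-supplemented 1 just below control 4. Of all genes shown, only Fstl3 had groups that did not overlap.

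Amh (chromosome 10, 80805243 to 80807648, plus strand), which encodes the hormone, had 13, 0, 38 and 1 counts in controls 1 to 4 and 2, 0, 70 and 1 counts in mito-supplemented samples 1 to 4. In mito-supplemented samples nearly all of its counts, 70 of 73, thus came from mito-supplemented 3 (3.18 CPM). In controls 38 of 52 came from control 3 (2.17 CPM) and 13 from control 1. The 0 counts of control 2 and of mito-supplemented 2 allow levels of up to 0.238 and 0.208 CPM (3 counts), and these limits, like the counting interval given for Fstl3, hold for counting error alone and not for the amplification of the cDNA. The groups overlapped, with mito-supplemented 3 alone above all controls, Amh did not pass the expression filter, and the difference in mean log2 CPM of −0.45 was smaller than the spread between libraries (exact permutation test, two-sided, p = 0.714). Mean CPM went the other way, with 0.726 in controls and 0.836 in mito-supplemented samples. The difference changed sign when control 3 was left out, to 0.29, or mito-supplemented 2, to 0.07.

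Amhr2 (chromosome 15, 102445367 to 102454633, plus strand), the gene of the type II receptor that binds AMH and no other known ligand, had 9.76, 8.32, 11.0 and 14.4 CPM in controls 1 to 4 and 13.5, 51.3, 34.7 and 66.5 CPM in mito-supplemented samples 1 to 4. Controls lay close together, mito-supplemented 2, 3 and 4 lay well above each of them, and mito-supplemented 1 lay among them, just below control 4, so that the groups overlapped by this pair of libraries. With library sizes alone in place of TMM factors the groups did not overlap, nor did they when control 4 or mito-supplemented 1 was left out. The means were 10.9 ± 2.60 and 41.5 ± 22.7 CPM (SD, n = 4 each), and the log2 fold change was 1.94 (standard error 0.50, adjusted p = 0.544 in edgeR's quasi-likelihood test), higher than the median control in 4 of 4 mito-supplemented libraries. The exact permutation test of log2 CPM gave p = 0.0571 (two-sided, not adjusted), where 4 libraries against 4 allow no less than 0.0286. In DESeq2 the adjusted p was 0.0417, in limma-voom with sample quality weights 0.0156 and in the likelihood ratio test 0.0943, and over all 21 alternatives it ranged from 0.0156 to 0.971 with log2 fold changes between 1.64 and 2.29. The Amhr2 level of control 4 rested on 73 counts, against 105 to 238 in the other controls and 279 to 957 in mito-supplemented libraries. The direction was thus the same throughout and the call was not, and why the tests differed was not tested.

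The sequence before the start of Amhr2 is shown because this gene had the largest difference in edgeR's quasi-likelihood test. It comes from RefSeq on GRCm38.p6, where 8 of the 10 genes had a window of this kind and covers the 250 bases upstream of the annotated start (chr15:102445117-102445366, plus strand). Letters of 7 motifs were searched on both strands of the 8 windows: the NR5A response element AAGGTCA, the cAMP response element TGACGTCA and its variant TGCGTCA, the AP-1 element TGANTCA, the forkhead element GTAAACA, the GATA factor element AGATAA and the SMAD element CAGACA. By GENCODE, the start used for Inha lies 532 bases inside the gene and that for Acvr2b 60 bases, so that the window of Inha lies in the gene and that of Acvr2b in part. Capitals mark the only match in the Amhr2 window, AAGGTCA at position −231 from the start, letters that 4.08% of 32851 such windows hold.
Amhr2 upstream: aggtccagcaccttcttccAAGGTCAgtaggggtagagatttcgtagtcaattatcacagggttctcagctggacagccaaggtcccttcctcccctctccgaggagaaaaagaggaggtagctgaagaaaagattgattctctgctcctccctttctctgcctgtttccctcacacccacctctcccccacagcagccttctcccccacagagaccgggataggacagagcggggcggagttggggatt
A match of letters describes the sequence only, and binding was not measured.

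The type I receptors that can act with AMHR2 are encoded by Acvr1, Bmpr1a and Bmpr1b. Acvr1 had 1.19, 4.60, 6.06 and 3.75 CPM in controls and 8.20, 18.9, 19.7 and 12.4 CPM in mito-supplemented samples. All mito-supplemented libraries were above all controls, and the lowest of them, mito-supplemented 1, was again the library nearest to controls. The log2 fold change was 1.92 (standard error 0.61, adjusted p = 0.599 in edgeR's quasi-likelihood test). Bmpr1a, a type I receptor shared with bone morphogenetic proteins, had 136, 27.6, 56.3 and 135 CPM in controls and 77.5, 169, 166 and 145 CPM in mito-supplemented samples, with groups that overlapped (log2 fold change 0.65, standard error 0.51, adjusted p = 0.744 in the same edgeR test). Without control 2 the log2 fold change of Bmpr1a was 0.36, and without control 1 it was 0.96. Bmpr1b overlapped over nearly its whole range, with 1.03 to 35.0 CPM in controls and 11.5 to 33.7 CPM in mito-supplemented samples (log2 fold change 0.14, standard error 0.78). Its log2 fold change was −0.26 without control 2 and 0.57 without control 1. Smad6 encodes an inhibitory SMAD that bone morphogenetic protein signals induce, and it had 0.37, 1.35, 0.63 and 0.99 CPM in controls and 3.45, 4.92, 2.09 and 3.34 CPM in mito-supplemented samples. Its groups did not overlap either, at a low level in all libraries (log2 fold change 2.05, standard error 0.79, adjusted p = 0.626 in edgeR's quasi-likelihood test).

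**Figure D2:**
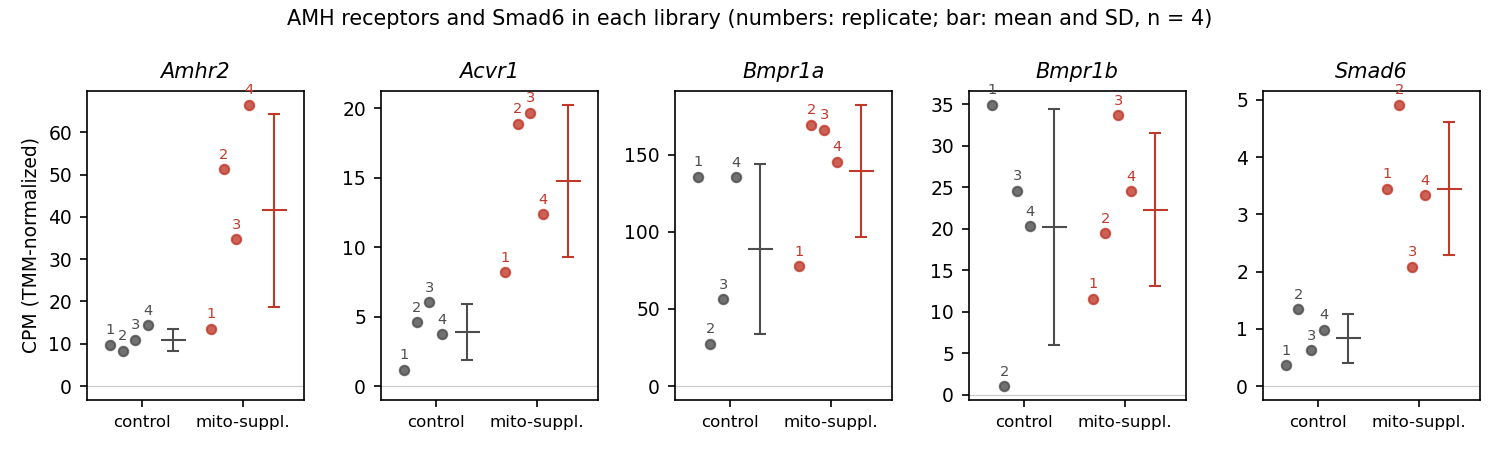
Levels in TMM-normalized CPM (vertical axes, a scale for each gene) of Amhr2, the type I receptor genes Acvr1, Bmpr1a and Bmpr1b and the inhibitory SMAD gene Smad6 in the 8 libraries, with the mean and SD of each group (n = 4). The groups did not overlap for Acvr1 and Smad6, while for Amhr2 mito-supplemented 1 (13.5 CPM) lay below control 4 (14.4 CPM).

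Inha (chromosome 1, 75507077 to 75510366, plus strand), the gene of the alpha subunit that makes a dimer an inhibin, had 8.45, 4.04, 8.06 and 13.8 CPM in controls 1 to 4 and 4.61, 13.0, 22.2 and 6.26 CPM in mito-supplemented samples 1 to 4. The groups overlapped, with the highest value in mito-supplemented 3 and the lowest in control 2. The log2 fold change of 0.43 was below its standard error of 0.62 (adjusted p = 0.850 in edgeR's quasi-likelihood test), and without mito-supplemented 3 it was −0.08.

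Inhba (chromosome 13, 16011851 to 16031621, plus strand), which encodes the beta A subunit of activin A and inhibin A, had 5.25, 3.73, 3.32 and 12.6 CPM in controls and 12.7, 3.19, 13.5 and 3.13 CPM in mito-supplemented samples. Libraries fell near 3 to 5 CPM or near 13 CPM in both groups, with 1 control and 2 mito-supplemented libraries at the upper level. With a standard error of 0.73, the log2 fold change was 0.39 (adjusted p = 0.875 in edgeR's quasi-likelihood test). Inhbb (chromosome 1, 119415465 to 119422248, minus strand), which encodes the beta B subunit of activin B and inhibin B, had 30.9, 3.33, 10.6 and 40.3 CPM in controls and 6.11, 9.14, 28.8 and 27.5 CPM in mito-supplemented samples. High and low libraries occurred in both groups, and control 2, control 3 and mito-supplemented 1, the libraries with many red cell transcripts, were among the 4 lowest with mito-supplemented 2, which had few. The log2 fold change of −0.25 was well within its standard error of 0.77 (adjusted p = 0.928 in the same edgeR test). Its direction was not settled by these data, as it was positive with library sizes alone (0.17), with counts summed by label prefix (0.22) and without control 4 (0.28).

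Among the activin receptors, Acvr2a (chromosome 2, 48814109 to 48903269, plus strand), a type II receptor gene, was the most even in level. It had 43.9, 29.7, 26.4 and 33.8 CPM in controls and 23.7, 47.4, 47.1 and 35.0 CPM in mito-supplemented samples. The groups overlapped, and the lowest and the highest value were both from mito-supplemented libraries. The means were 33.4 ± 7.58 and 38.3 ± 11.3 CPM (SD, n = 4 each) and the log2 fold change was 0.19 (standard error 0.36, adjusted p = 0.875 in edgeR's quasi-likelihood test). Exons of Acvr2a overlap those of the antisense gene Orc4 over 446 bp, and as the strand setting of the counting is not given, its level is uncertain to that extent.

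Acvr2b (chromosome 9, 119402118 to 119434995, plus strand), the other type II receptor gene for activin, had 8.57, 0.71, 1.32 and 5.33 CPM in controls and 1.65, 3.32, 4.04 and 0.07 CPM in mito-supplemented samples. Single libraries set the picture here: the highest value came from control 1, and mito-supplemented 4 held 1 count of the gene. The log2 fold change of −0.81 had a standard error of 1.13 (adjusted p = 0.842 in edgeR's quasi-likelihood test), was −0.06 without control 1 and turned to 1.05 in limma-voom with sample quality weights, which gave control 1 a weight of 0.231. Acvr1b (chromosome 15, 101174067 to 101213684, plus strand), the type I receptor gene of activin, had 8.70, 3.33, 1.77 and 0.79 CPM in controls and 2.57, 9.97, 8.85 and 5.63 CPM in mito-supplemented samples. Control 1 lay among the high mito-supplemented libraries, the other 3 controls lay at or below 3.33 CPM, and the groups overlapped. Its log2 fold change was 0.87 (standard error 0.81, adjusted p = 0.777 in edgeR's quasi-likelihood test), and 1.78 without control 1. Its adjusted p was 0.0438 in limma-voom with sample quality weights and between that and 0.971 over 21 alternatives.

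Fst (chromosome 13, 114452290 to 114458951, minus strand), which encodes follistatin, had 24.8, 6.50, 2.52 and 24.9 CPM in controls 1 to 4 and 10.6, 27.7, 58.8 and 16.5 CPM in mito-supplemented samples 1 to 4. Controls fell into a high and a low pair, and the mito-supplemented libraries ranged from between these pairs to above both. For Fst the log2 fold change was 0.96 (standard error 0.77, adjusted p = 0.747 in edgeR's quasi-likelihood test) and 0.35 without mito-supplemented 3. In limma-voom with sample quality weights it was 3.12 with an adjusted p of 0.0176, the lowest over its 21 alternatives, of which the highest was 0.971. That fit weighted controls 1 to 4 at 0.231, 1.83, 3.53 and 0.538, and mito-supplemented samples 1 to 4 at 0.514, 2.27, 2.58 and 0.414. Control 3, with the lowest Fst level, thus had the highest weight, and the high pair, controls 1 and 4, the lowest among controls. The part of these weights was not tested. With single libraries left out, edgeR's log2 fold change of Fst ran from 0.35 to 1.38. The exons of Fst overlap the antisense transcript Gm47040 over 115 bp.

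Fstl3 (chromosome 10, 79777272 to 79782630, plus strand), which encodes a second activin-binding protein of the follistatin family, had 1, 0, 1 and 0 counts in controls and 4, 11, 18 and 3 counts in mito-supplemented samples. In CPM all mito-supplemented libraries (0.194 to 0.817) were above all controls (at most 0.0572), but all were low. Summed over each group and scaled by library size with TMM factors, the 36 counts against 2 give a ratio of 15.0, with an exact 95% counting interval from 3.86 to 129 that leaves out the spread between libraries. The exact permutation p of log2 CPM was 0.0286 (two-sided, not adjusted), the smallest these groups allow. The 0 counts of control 2 and control 4 allow up to 0.238 and 0.592 CPM (3 counts), both above mito-supplemented 1 and 4. Separation of the groups is thus not assured at this depth, and the gene did not pass the expression filter. Exons of Fstl3 overlap those of the antisense gene Prss57 over 1157 bp. Prss57 had 0, 2, 9 and 0 counts in controls and 2, 1, 0 and 0 counts in mito-supplemented samples, fewer than Fstl3 in each mito-supplemented library, but reads of the overlap cannot be assigned without knowledge of strand.

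The window before Fstl3 is shown as the other gene with a match, from the same source (chr10:79777024-79777273, plus strand). Its last 2 bases lie in the gene's annotated first exon and the rest before it. Capitals mark TGTCTG, the SMAD element CAGACA read on the other strand, at position −162, letters that 17.1% of 32851 windows hold.
Fstl3 upstream: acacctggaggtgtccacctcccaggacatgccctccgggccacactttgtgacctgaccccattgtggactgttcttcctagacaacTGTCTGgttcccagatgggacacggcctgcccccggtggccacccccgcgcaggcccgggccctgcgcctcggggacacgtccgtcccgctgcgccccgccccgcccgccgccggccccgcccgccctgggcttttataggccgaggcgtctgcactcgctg

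**Figure D3:**
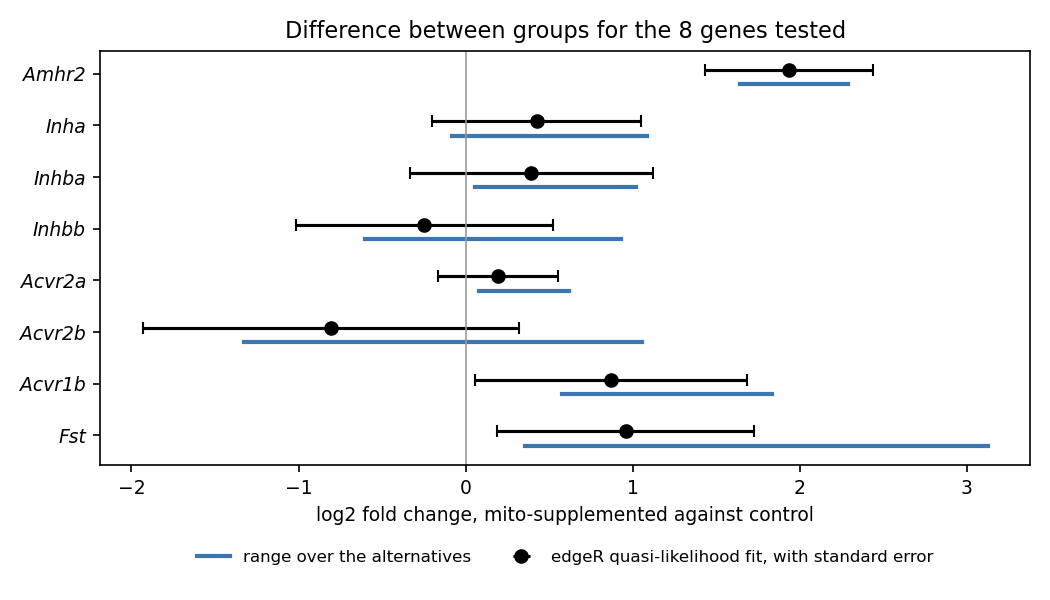
Log2 fold changes of mito-supplemented against control samples (horizontal axis) for the 8 genes tested, as points with their standard error from edgeR's quasi-likelihood fit and as lines for the range over 21 alternatives. The range of Amhr2, from 1.64 to 2.29, lay farthest from 0, those of Inhba, Acvr2a, Acvr1b and Fst were also positive throughout, and those of Inha, Inhbb and Acvr2b crossed 0.

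Together, the log2 fold change was positive for 6 of the 8 genes tested and negative for 2, and with library sizes alone Inhbb turned and 7 of 8 were higher, as were 8 of 8 in limma-voom (median 1.07). The median log2 fold change was 0.41, beside −0.10 for all 13873 genes, of which 6225 were higher. Library sizes alone moved the median of all genes to 0.17 and that of the 8 to 0.89, so that both were higher under this scaling. Without mito-supplemented 3, the library with the highest Inha, Inhba and Fst, the median of the 8 was 0.08 and 5 of them were higher. Over the 9 genes that then passed the filter it was 0.19 without control 2 and 0.67 without mito-supplemented 4, so that the median leaned on single libraries.

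Levels of different genes were compared per length, as CPM per kilobase of exon. In this measure Amhr2 had the highest median of the 8 libraries, 6.97, and ranged from 4.15 to 33.2. This rank came from mito-supplemented samples, where its median was 21.4, while in controls it was 5.17, below those of Acvr2a (5.58) and Inha (5.60). Acvr2a followed with a median of 6.04 and a range from 4.17 to 8.33, and Amhr2 lay above it in 6 of 8 libraries. Acvr2a and Inha, whose median was 5.60, could not be ordered, each being the higher in 4 libraries. Inha lay above Fst, with a median of 4.51, in 8 of 8 libraries, and Fst and Inhbb, with a median of 4.49, again split 4 to 4. Inhbb lay above Acvr1b, with a median of 1.01, in 7 of 8 libraries. The remaining genes were lower: Acvr1b and Inhba (0.702) split 4 to 4, and Inhba lay above Acvr2b (0.633) in 6 of 8 libraries. Amh (0.0881) and Fstl3 (0.0514) had the lowest medians, each being at 0 in 2 libraries. Acvr2b lay above Amh in 5 of 8 libraries and Amh above Fstl3 in 4 of 8. Amh reached 1.30 in control 3 and 1.90 in mito-supplemented 3. Its median was above that of Fstl3 in controls (0.219 against 0.00839) and below it in mito-supplemented samples (0.0499 against 0.198). An upper and a lower tier were thus apparent, with transcripts for the AMH receptor, ACVR2A, inhibin alpha, the beta B subunit and follistatin in the upper tier and those for the beta A subunit, ACVR1B and ACVR2B in the lower.

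**Figure D4:**
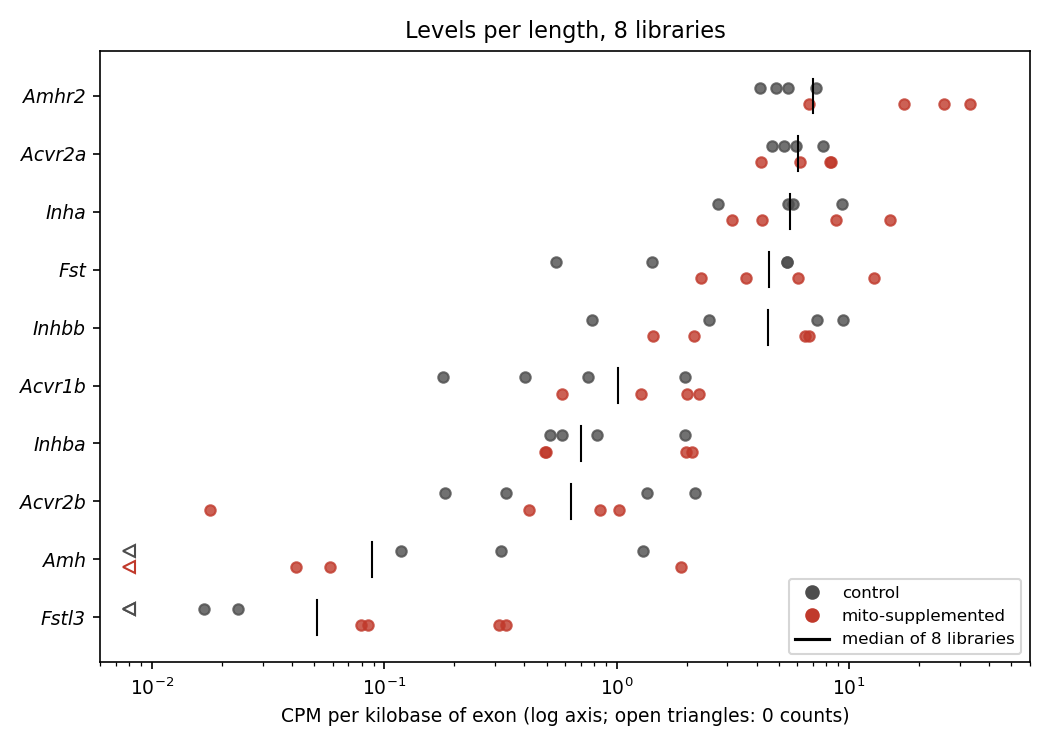
CPM per kilobase of exon (horizontal log axis) of the 10 genes in each control and mito-supplemented library, ordered by the median of 8 libraries (vertical bars), with open triangles at the left for libraries with 0 counts. Amhr2, Acvr2a, Inha, Fst and Inhbb had medians from 4.49 to 6.97. The medians of Amh and Fstl3 lay below 0.1, with single libraries up to 1.90 and 0.334.

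Ratios within a library do not depend on its scaling, and 4 of them were compared, each from counts per kilobase with 0.5 counts added, by exact permutation tests (two-sided, adjusted over the 4). The log2 ratio of Inha to both beta subunits sets the alpha subunit of inhibin against subunits that inhibin and activin share. It was −0.50, 1.00, 0.86 and −0.28 in controls and −0.13, 1.73, 0.76 and −0.71 in mito-supplemented samples. High and low ratios occurred in both groups, and the difference of 0.14 changed sign without control 1, control 4 or mito-supplemented 2 (exact permutation p = 0.857, adjusted 0.971). The log2 ratio of Fst to both beta subunits sets the binding protein against the same shared subunits, which are not those of activin alone. This ratio was −0.58, 0.05, −2.45 and −1.08 in controls and −0.57, 1.18, 0.53 and −0.95 in mito-supplemented samples. It was above the control median in 3 of 4 mito-supplemented libraries, and the group means differed by 1.06, with groups that overlapped (exact permutation p = 0.171, adjusted 0.686). The log2 ratio of Inha to Foxl2, a measure of Inha per pregranulosa transcript, was 0.25, −0.07, 0.50 and −0.13 in controls and 0.42, 0.98, 1.20 and −2.14 in mito-supplemented samples. It was tight in controls, and 3 mito-supplemented libraries lay above the control median while mito-supplemented 4 lay far below all controls (difference −0.02, exact permutation p = 0.971, adjusted 0.971). That of Amh to Foxl2 ran from −6.94 to −1.55 in controls and from −8.24 to −1.77 in mito-supplemented samples (exact permutation p = 0.543, adjusted 0.971). The −6.94 of control 2 and the −7.75 of mito-supplemented 2 came from 0 Amh counts, so they rest on the 0.5 counts added. The −8.24 of mito-supplemented 4 came from 1 count. With 5 counts added in place of 0.5, the difference between groups was −0.88 in place of −1.14.

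After the values of Amhr2 had been seen, it was also set against Foxl2 and against Wt1, a gene of both pregranulosa cells and the ovarian surface epithelium, and no test is given for these ratios. The log2 ratio of Amhr2 to Foxl2 was 0.02, 0.52, 0.50 and −0.51 in controls and 1.53, 2.51, 1.40 and 0.82 in mito-supplemented samples. All mito-supplemented libraries were above all controls, mito-supplemented 1 included. The log2 ratio of Amhr2 to Wt1 was −1.31, −1.42, −1.05 and −2.90 in controls and −1.79, −1.54, −1.07 and −1.51 in mito-supplemented samples. Here the groups overlapped, with control 4 lowest and the other 3 controls at or above most mito-supplemented libraries, so that Amhr2 was higher relative to Foxl2 but not relative to Wt1.

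Across the 8 libraries, the member most like Amhr2 in log2 CPM was Fst, with a Pearson correlation of 0.52. Fst and Acvr2a were most like each other (0.81). The member most like Inha and Acvr1b was Acvr2a (0.72 each), that most like Inhbb and Acvr2b was Inha (0.65 and 0.58), and that most like Inhba was Acvr2b (0.49). Of all genes tested, those most like Inha were Chn2, Hmgcs1 and Stox2 (0.96, 0.95 and 0.94), those most like Inhbb were Ass1, 1110003E01Rik and Mocs2 (0.97 each), and those most like Fst were Mex3c, Ankrd50 and Ptges (0.98, 0.96 and 0.95). For Amh, which had 0 counts in 2 libraries, they included Ddx3x and Mospd2 (0.88 and 0.81). For Amhr2, added after its values were seen, they were Gstm2, C1ra and Src (0.98 each). As the highest of 13873 correlations over the same 8 libraries, which also differ by group, these values describe likeness only.

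The remaining genes of the pathway were taken from a list of 30 receptors, SMAD proteins, binding proteins and processing enzymes. Of the 24 tested, 22 were higher in mito-supplemented samples, with a median log2 fold change of 0.51 beside −0.10 for all genes. This median was 0.36 without control 2, 0.83 without control 4 and 1.11 in limma-voom, where 24 of 24 were higher. 0 had an adjusted p under 0.05 in edgeR's quasi-likelihood test, 4 were higher at an unadjusted p under 0.05, beside 5.31% of all genes, and 2, Acvr1 and Smad6, had groups that did not overlap, beside 3.0% of all genes tested in this direction. The most abundant was Bmpr2, a type II receptor gene of bone morphogenetic proteins, with 162, 46.9, 63.1 and 214 CPM in controls and 88.2, 196, 286 and 165 CPM in mito-supplemented samples. Control 2, control 3 and mito-supplemented 1 were its lowest libraries. Pcsk6, a proprotein convertase gene, had 57.2 to 207 CPM in controls and 66.3 to 263 CPM in mito-supplemented samples, Fstl1, of the follistatin-like family, 40.4 to 214 and 68.5 to 307 CPM, and Smad3, an activin signal transducer, 48.1 to 249 and 60.7 to 192 CPM. These ranges overlapped throughout. Inhbc, Inhbe and Foxh1 had 0 counts in all 8 libraries, so that activin C and E subunits were not detected.

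A list of 22 other ligands, receptors and antagonists of the transforming growth factor beta family had 15 genes tested, of which 11 were higher (median log2 fold change 0.73). Without mito-supplemented 3 the median was 0.34 with 8 of 15 higher, and without mito-supplemented 4 it was 0.29. 0 passed the adjusted threshold in edgeR's quasi-likelihood test, 2 were higher at an unadjusted p under 0.05 (5.31% of all genes), and 1 had groups that did not overlap (3.0% of all genes tested), Acvrl1, a type I receptor gene known from endothelial cells. Acvrl1 had 0.29, 0.63, 1.14 and 0.20 CPM in controls and 5.09, 8.03, 5.49 and 17.2 CPM in mito-supplemented samples. All mito-supplemented libraries were above all controls by a wide margin (log2 fold change 3.92, standard error 0.83, adjusted p = 0.440 in edgeR's quasi-likelihood test and 0.00528 in the likelihood ratio test). The 9 endothelial genes, led by Kdr, summed to 26.2, 28.9, 45.3 and 216 CPM in controls and 98.5, 228, 184 and 201 CPM in mito-supplemented samples, and their part in the difference of Acvrl1 was not tested. Among the most abundant genes, the receptor gene Tgfbr1 and the ligand genes Tgfb2, Tgfb3 and Gdf9 had log2 fold changes of −0.44, 1.31, 1.45 and −0.59, with groups that overlapped. Without control 1 those of Tgfbr1 and Gdf9 turned to 0.13 and 1.09, and without mito-supplemented 4 that of Tgfb2 was 0.24.

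Among 16 target genes of SMAD proteins, 12 of the 14 tested were higher, with a median log2 fold change of 0.76. 0 passed the adjusted threshold in edgeR's quasi-likelihood test and 2 were higher at an unadjusted p under 0.05 (5.31% of all genes). These were Smad6 and Tgif1, a corepressor gene, and they were also those whose groups did not overlap (3.0% of all genes tested), Tgif1 being named after its values were seen. Next to Smad6 the largest log2 fold changes were those of Ltbp3, which encodes a binding protein of latent TGF-beta (1.18), and Gadd45b, a stress response gene (1.11), whose groups overlapped. That of Ltbp3 was 0.79 without mito-supplemented 4 and 2.02 without control 4. Smad6, Smad7 and Skil belong both to this list and to that of the pathway.

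Marker genes of several cell types moved with Amhr2, and their part in its difference was not tested. The 22 pregranulosa and granulosa genes, led by Wt1, summed to 401, 327, 459 and 1279 CPM in controls and 764, 1779, 1170 and 1854 CPM in mito-supplemented samples, and 17 of the 19 tested were higher (median log2 fold change 1.00). The 11 surface epithelium genes, also led by Wt1, summed to 216, 131, 114 and 734 CPM in controls and 493, 1467, 648 and 1355 CPM in mito-supplemented samples, with 11 of 11 higher (median 1.89). In both lists, as in Amhr2, mito-supplemented 2 and 4 were highest and mito-supplemented 1 was the lowest of its group. Control 4 had sums of both lists above those of mito-supplemented 1 and 3. Its Amhr2 level of 14.4 CPM, on 73 counts, was the highest of the controls. That level lay just above mito-supplemented 1 (13.5 CPM) and below mito-supplemented 3 (34.7 CPM). The 12 stroma genes, led by Col3a1, summed to 375, 522, 735 and 2326 CPM in controls and 1029, 1072, 2690 and 2352 CPM in mito-supplemented samples, 12 of 12 being higher (median 0.75). Without control 4 the medians of these lists were higher, at 1.87 for granulosa, 3.09 for surface epithelium and 1.56 for stroma genes. For stroma genes the median was 0.50 without mito-supplemented 3, with 11 of 12 higher, and 0.61 without mito-supplemented 4, with 10 of 12 higher. The 20 oocyte genes, led by Nlrp5, summed to 4648, 238, 231 and 836 CPM in controls and 382, 266, 1001 and 158 CPM in mito-supplemented samples, with 0 of 17 higher (median −1.70), and without control 1 it was 11 of 17 with a median of 0.22. In limma-voom with sample quality weights 16 of 17 oocyte genes were higher (median 1.06), and with the replicate block 3 of 17 (median −0.89). The red cell genes, 6 of 9 listed and led by Slc4a1, summed to 13.4, 3617, 2401 and 41.4 CPM in controls and 4530, 72.9, 20.1 and 19.2 CPM in mito-supplemented samples. Amhr2 was low both in the 3 libraries rich in red cell transcripts and in controls 1 and 4, which were poor in them. None of the genes of these 5 lists found in the table was at 0 in all libraries.

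**Figure D5:**
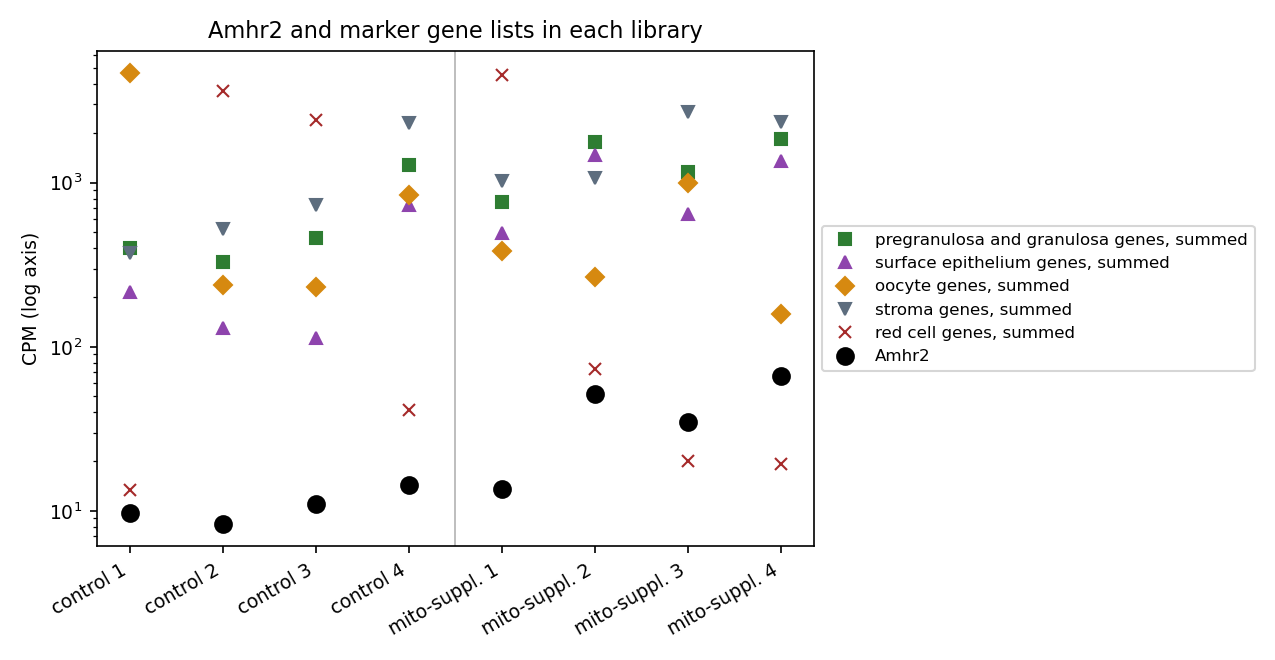
The level of Amhr2 and the summed levels of 5 marker gene lists in CPM (vertical log axis) in each of the 8 libraries (horizontal axis). Granulosa and surface epithelium sums were high in control 4 (1279 and 734 CPM), where Amhr2 was at 14.4 CPM, and in mito-supplemented 2 and 4, where Amhr2 was at 51.3 and 66.5 CPM.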

How the data were processed

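Per the labels and the study's methods, the authors trimmed the reads with Trim Galore 0.4.4, mapped them to the mouse genome GRCm38/mm10 with STAR 2.5.3a and counted them per gene with featureCounts, and version 3.20.9 of edgeR is named for their test. They left out 1 further control library, which was not analysed here. The deposited values are raw counts per gene symbol. The sources used here do not give the annotation release, the strand setting or how multimapping reads were handled.

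Counts were analysed with edgeR 4.0.16 in R 4.3.3 (TMM, default expression filter with a minimum count of 10, quasi-likelihood test over all genes, Benjamini-Hochberg adjustment, called at adjusted p under 0.05). A standard error is the log2 fold change divided by the root of F. Log2 CPM has a prior count of 2. CPM is given for all genes listed with the scaling of the genes tested. DESeq2 1.42.0, limma 3.58.1 and edgeR's likelihood ratio test, which the study used, served as alternatives, with other normalizations and filters, a replicate block, counts summed by label prefix, a GC and length offset (known for 97.4% of genes tested), ribosomal genes left out, and each library left out in turn. The scripts were tested on simulated counts. Columns of no sample numbered 0. Gene models are those of GENCODE M21. It held 24546 of the 26586 symbols, 2077 by an older name, and upstream sequences are those of RefSeq GRCm38.p6.

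The genes named were all 10 members, the member most like each, the 3 genes most like Amh, Inha, Inhbb and Fst, the 5 most abundant genes and those with groups that do not overlap from both pathway lists, the 3 largest changes among SMAD targets, and the most abundant gene of each marker list with its markers at 0. Not every gene that meets these rules is printed. Bmpr1b, Ddx4, Sohlh1, Sohlh2, Lhx8, Tgif1, the genes most like Amhr2 and the pathway genes at 0 were named outside these rules, after their values were seen. Members and lists were chosen with earlier results of these data known. Samples came from separate ovaries as far as the methods say, but the labels do not name the animals, so p measures the spread between these samples.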

Additional observations from a re-analysis of the deposited data

Results flagged for a closer look

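In 9 of 60 groups of 4 libraries, 1 library lay far from the other 3 of its group on the scale printed. Chance would flag about 1 in 20 independent groups, or 3 of 60. These groups share libraries and some genes, and each library flagged was the highest of its group. The 9 therefore cannot be read as an excess over chance. Of the 10 genes, Amh was the only one with such a library, mito-supplemented 3 at 3.18 CPM beside 0 to 0.0970 CPM in the other 3. Control 4 stood above the other controls in the summed CPM of pregranulosa and granulosa genes (1279 beside 327 to 459), surface epithelium genes (734 beside 114 to 216), endothelial genes (215.7 beside 26.2 to 45.3) and smooth muscle genes (303 beside 40.2 to 76.9). Control 1 stood above the other controls in oocyte genes (4648 CPM beside 231 to 836). Mito-supplemented 1 stood above the others of its group in leukocyte genes (753 CPM beside 8.55 to 16.4) and red cell genes (4530 CPM beside 19.2 to 72.9), and mito-supplemented 4 in smooth muscle genes (485 CPM beside 74.8 to 128). On the log2 scale, 1 of 44 groups of gene levels and list sums had such a library, where the same rate gives 2.2 for independent groups.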

How the results depend on the processing

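Over 19 results and their alternatives, 273 of 310 values kept direction and side of the threshold or, for ratios with no test, moved by less than 1 SD between libraries. The rest were as follows, and the cause was not tested. DESeq2 called 1 member (Amhr2, log2 fold change 1.93) and 141 genes, limma-voom with sample quality weights 3 members (Amhr2 1.90, Fst 3.12, Acvr1b 1.83) and 2913 genes, and the likelihood ratio test 0 members and 58 genes. Limma-voom also turned Inhbb to 0.93 and Acvr2b to 1.05. Inhbb was positive with library sizes alone (0.17) and counts summed by label prefix (0.22). With library sizes alone, 2 members, Amhr2 and Fstl3, had groups that did not overlap. Leaving out each library in turn gave log2 fold changes from 1.64 to 2.26 for Amhr2, −0.081 to 0.77 for Inha, 0.05 to 1.01 for Inhba, −0.60 to 0.28 for Inhbb, 0.35 to 1.38 for Fst, 0.08 to 0.40 for Acvr2a, −1.21 to −0.06 for Acvr2b and 0.58 to 1.78 for Acvr1b, with 0 members and 0 genes called and 1 to 2 members whose groups did not overlap. The difference in mean log2 CPM ran from −1.48 to 0.29 for Amh and from 1.62 to 2.18 for Fstl3, where 3 libraries against 4 allow no p under 0.0571. The log2 ratio differences ran from −0.29 to 0.52 for Inha to beta subunits, −0.39 to 0.73 for Inha to Foxl2, 0.59 to 1.42 for Fst to beta subunits, −2.45 to −0.14 for Amh to Foxl2, 1.12 to 1.68 for Amhr2 to Foxl2 and −0.22 to 0.40 for Amhr2 to Wt1, which turned without control 4. The replicate block called 0 genes and 0 members, with log2 fold changes of 1.75 for Amhr2 and 0.054 for Inhbb, and turned no other member. Same-numbered samples were not paired in the main test. Their deviations correlated at −0.24, −0.19, −0.33 and 0.22 for numbers 1 to 4, and 2 of 8 libraries correlated best with their own number. As the libraries differ in cell content, these correlations cannot show whether same-numbered samples were handled together. A fit of edgeR without its legacy settings, added after the data were seen, called 0 members and 0 genes. Depth limits what can be said of genes with few counts, such as Amh and Fstl3.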

Other observations

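The remaining marker lists were not part of the comparison of Amhr2. Of 9 endothelial genes, led by Kdr, 6 of 8 tested were higher in mito-supplemented samples (median log2 fold change 1.10, and 0.43 without mito-supplemented 3), and of 6 smooth muscle genes, led by Myl9, 6 of 6 were (median 0.90), but 3 of 6 without mito-supplemented 4 (median −0.04). Of 9 leukocyte genes, led by Lyz2, 8 were listed, C1qb had 0 counts in all libraries, and 5 of 5 tested were higher (median 0.54), which turned to 2 of 5 without mito-supplemented 1 (median −2.44), to 2 of 5 with the replicate block (median −1.96) and to 1 of 5 in limma-voom (median −2.32). Of 16 immediate-early genes, led by Egr1, 14 of 15 tested were higher, with a median of 1.94 and 7 whose groups did not overlap, beside 3.0% of all genes tested. Their part in the values of the AMH, activin and follistatin genes was not tested.

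These values have limits. They rest on 4 libraries a group that differ in their content of oocyte, somatic and red cell transcripts, and on amplified RNA of few follicles. Control 4 has the least depth outside ribosomal genes. Transcript counts say nothing of secreted hormone, of dimer assembly or of receptor protein. Amh and Fstl3 did not pass the default expression filter. Label prefixes fall within groups, and relatedness of the animals is not given.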
